A study of Mus musculus with 21 samples.

Results

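Microglia transplanted into the mouse brain were compared with the microglia of mice that had received no transplant, both 5 days after seizures induced with kainic acid, a glutamate receptor agonist. The comparison held every library with these labels, 4 of transplanted microglia (MG) and 3 of microglia without a transplant (NoTx), together 7 of the 21 RNA-seq libraries of the study. The series is titled as a study of neonatal microglia replacement and adult seizure severity. Cells were sorted from brain by flow cytometry. The labels give Osb-GFP as the genotype of MG cells. For NoTx cells they give CX3CR1-CreER+/-; CSF1R fl/fl, a genotype that joins a tamoxifen-inducible Cre recombinase named for the fractalkine receptor with floxed alleles of the colony-stimulating factor 1 receptor. Genotype and transplantation therefore differed together and cannot be told apart. The age of the mice, the number of animals behind a library, the genotype of the mice that received MG cells and any use of tamoxifen are not given in the labels. All 7 libraries were labelled batch 1. As further values, the saline libraries (3 MG and 2 NoTx, batch 2) and the seizure libraries of transplanted monocyte-derived cells (MLC, 6 libraries, Osb-GFP) are given where they bear on a gene. All libraries of these groups are labelled biological replicates, without naming the animals, so p values measure the spread between libraries.

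Microglia, the macrophages that live within brain tissue, arise early in development, renew themselves under signals through Csf1r, and survey neurons with processes that are steered by the ADP receptor P2ry12. After seizures microglia proliferate and can switch on programs of antigen presentation, interferon response and lipid handling. Transplanted cells that take up residence in the brain are usually judged by how far they carry the transcripts that resident microglia hold at rest.

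The MG libraries held between 7.64 M and 47.4 M estimated counts (M stands for mega) and 14889 to 15399 detected genes, and the NoTx libraries between 14.9 M and 73.8 M counts and 14383 to 17591 detected genes. Thinned to 6.57 M counts each, the ranges were 11728 to 14871 genes in MG and 13203 to 13874 in NoTx. Correlations between groups and within groups covered similar ranges. Over all tested genes, Pearson's r of log2 CPM ran from 0.797 to 0.871 between MG libraries, from 0.827 to 0.856 between NoTx libraries and from 0.787 to 0.869 between an MG and a NoTx library. Values below are CPM, counts scaled to a common library total and normalised for library size and composition, given in the order of the replicate numbers. They are not divided by transcript length, so they compare libraries for a gene and not genes with each other. NoTx replicate 3 stood apart in neutrophil transcripts, given with the markers of other cells, and without it 9 genes passed in place of 14. With another single library left out, 5 to 38 genes passed, so such a change was not particular to NoTx replicate 3. In bulk libraries, fewer cells of a type and less RNA per cell cannot be told apart.

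Transcripts of the 2 loci altered in NoTx mice were counted in all 7 libraries. Csf1r, the survival receptor of microglia, had 2253, 4237, 2508 and 1146 CPM in the MG libraries, against 1036, 2405 and 8538 CPM in the NoTx libraries. The lowest and the highest value were both NoTx, and the groups overlapped over most of their range (log2 fold change of MG over NoTx -0.65, SE 0.67, adjusted p = 0.895 in edgeR). Cx3cr1, the receptor for neuronal fractalkine, had 3883, 4873, 4011 and 1749 CPM in MG, against 857, 2450 and 4617 CPM in NoTx (log2 fold change 0.46, SE 0.54, adjusted p = 0.927 in edgeR). A total per gene does not show which exons were read, so these values do not test the state of a floxed allele. Levels of Csf1r moved with the GC trend of the libraries. The slope of log2 CPM on GC content, in log2 units per 10 points of GC, was 0.132, 0.448, 0.278 and -0.424 in the MG libraries, against -0.34, 0.191 and 0.618 in the NoTx libraries. The library with the lowest slope in each group was also the lowest in Csf1r, and the library with the highest slope the highest. Without NoTx replicate 3 the log2 fold change of Csf1r was 0.56, so this library set its direction, and without NoTx replicate 1 it was -1.11. After correction for GC content the log2 fold change of Csf1r was -0.33 and that of Cx3cr1 0.63. Whether the trend is technical was not tested. Of 52 tested genes matched by symbol within 2 Mb of Cx3cr1 and 31 within 2 Mb of Csf1r, none passed the threshold (0 in edgeR). The called gene Iigp1c was not matched by symbol, although it overlaps Gm5970, which is among the genes near Csf1r. With no adjustment, 4 genes near Cx3cr1 were higher and 8 lower at p under 0.05 in edgeR, and 5 near Csf1r were higher and 0 lower. Over all tested genes, 5.95% were higher and 5.1% lower at that limit. The 5 near Csf1r were F830016B08Rik, Iigp1, Cd74, Synpo and Gm4841.

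The transcripts that define resting microglia overlapped in level between transplanted and endogenous cells after seizure, and for most of them the interval of the difference was narrow. Sall1, which encodes a transcription factor that upholds microglial identity, had 198, 252, 329 and 194 CPM in MG, against 254, 265 and 308 CPM in NoTx. Its log2 fold change was -0.18 with a 95% interval from -1.23 to 0.87. P2ry12 had 11654, 12643, 18368 and 18227 CPM in MG, against 21114, 20383 and 12259 CPM in NoTx. Here the interval lay within 2-fold either way, from -0.75 to 0.28. Siglech, a sialic acid receptor of microglia, had an interval from -0.68 to 0.39, and Trem2, a lipid-sensing receptor, from -0.52 to 0.61. Each of these genes overlapped between the groups.

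Precision was not equal over the identity genes. Tmem119, a membrane protein used to mark microglia, had 2345, 5302, 3364 and 518 CPM in MG, against 736, 2848 and 7540 CPM in NoTx. Its interval from -2.01 to 1.28 allows a change of more than 2-fold either way, and its levels followed the same order of libraries as the GC slope. The widest interval belonged to Gpr165, an orphan receptor, with 16.1, 42.5, 0.106 and 0.413 CPM in MG, against 7.33, 73.2 and 106 CPM in NoTx (-5.26 to 1.09). Both libraries under 1 CPM were MG. Of 24 homeostatic genes tested, none was called (0 in edgeR, and 0 with an unadjusted p under 0.05), and 14 had a 95% interval within 2-fold either way. Among all genes with a mean log2 CPM of at least 4, that held for 22.5%, and among all tested genes for 7.03%. These shares rise with level and were not matched to the level of the list, so the excess does not measure likeness of the groups. The median log2 fold change of the list was -0.13, beside 0 over all tested genes, and 6 of the 24 genes had a positive fold change. Among abundant members 6 of 23 were positive, beside 53.6% of all abundant genes. The list thus leaned to slightly lower values in MG, without a call. The summed level of the list was 100130 to 157570 CPM in MG and 110580 to 155710 CPM in NoTx (exact two-sided permutation p = 0.657, where the smallest possible is 0.0571).

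**Figure D1:**
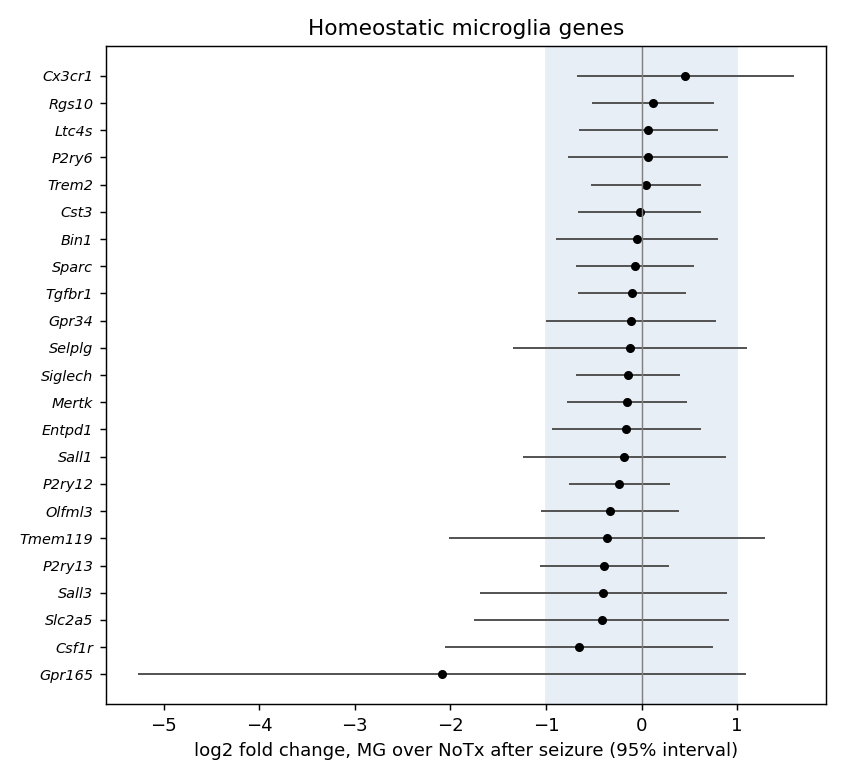
Log2 fold change of MG over NoTx after seizure (x axis, points) with its 95% interval (lines) for 23 homeostatic microglia genes; the shaded band marks a change within 2-fold. All 23 intervals cover 0 and 13 lie within the band, while Gpr165, Tmem119 and Csf1r reach far out of it.

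Across the transcriptome few genes separated the groups. Of 18867 genes tested, 14 passed an adjusted p under 0.05 in edgeR (0.0742%), 9 of them higher (0.0477%) and 5 lower (0.0265%) in MG. With no adjustment, 2085 genes had p under 0.05 (11.1%). In the same fit, which also shares the NoTx libraries, 1162 genes passed for MLC against NoTx (6.16%), 481 higher (2.55%) and 681 lower (3.61%). The number of calls rests on the fit. The spread of each gene was estimated over all 21 libraries, and a fit of only these 7 libraries called 0 genes, with 279 of 12292 genes at an unadjusted p under 0.05, as did a fit of the 13 seizure libraries, with 804 of 14126. DESeq2 called 627 genes, all 14 among them, and limma-voom called 24, of which 5 were higher and 19 lower, with 7 of the 14.

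**Figure D2:**
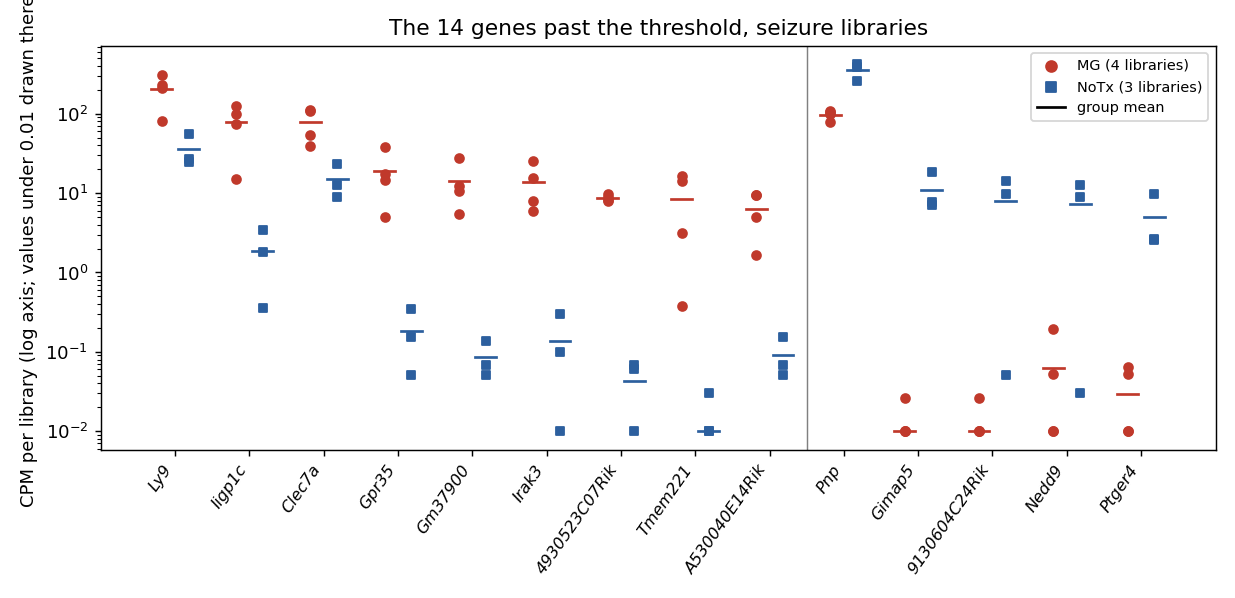
CPM of each library (y axis, log scale, values under 0.01 drawn there) for the 14 genes past the threshold, with MG as circles at the left of each gene and NoTx as squares at the right; bars are group means. To the left of the vertical line stand the 9 genes higher in MG, and to the right the 5 lower ones; only Ly9, Clec7a and Pnp reach a mean log2 CPM of at least 4.

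Among genes with a mean log2 CPM of at least 4, 3 of 5876 passed (0.0511%), and in these 3 the libraries of the groups did not overlap. Pnp, purine nucleoside phosphorylase of the purine salvage pathway, had 78.5, 98.1, 104 and 109 CPM in MG, against 419, 386 and 260 CPM in NoTx. The MG libraries lay close together and all lay below the lowest NoTx library. The mean was 97.5 ± 13.5 CPM in MG and 355 ± 84.2 CPM in NoTx (SD, n = 4 and 3), a log2 fold change of -1.86 (SE 0.30, adjusted p = 0.0128 in edgeR). Without NoTx replicate 2 the adjusted p in edgeR was 0.052, and without any other single library it stayed under 0.05. The annotation places Pnp2 and the model gene Gm49342 on the same strand over Pnp, so the division of reads between these overlapping genes is uncertain. Gm49342 had 40.2, 35.6, 42.4 and 42.3 CPM in MG, against 143, 145 and 92.2 CPM in NoTx, with a log2 fold change of -1.66 (SE 0.35, adjusted p = 0.082 in edgeR).

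Ly9, an adhesion receptor of the SLAM family on leukocytes, had 228, 80.2, 304 and 211 CPM in MG, against 26.8, 24.6 and 55.6 CPM in NoTx. The lowest MG library exceeded the highest NoTx library. The log2 fold change was 2.53 (SE 0.46, adjusted p = 0.0327 in edgeR), and the call was lost without MG replicate 3, NoTx replicate 1 or NoTx replicate 2, with a log2 fold change of 2.28 to 3.00 and an adjusted p of 0.0036 to 0.153 over the 7 leave-one-out fits. Clec7a, the beta-glucan receptor Dectin-1 and a marker of disease-associated microglia, had 53.7, 39.2, 107 and 111 CPM in MG, against 23.3, 8.92 and 12.5 CPM in NoTx. MG replicates 3 and 4, whose library names begin with another digit than those of replicates 1 and 2, were the highest. The log2 fold change was 2.39 (SE 0.44, adjusted p = 0.0367 in edgeR). Leaving out MG replicate 3, MG replicate 4, NoTx replicate 2 or NoTx replicate 3 ended the call, while the log2 fold change stayed between 2.12 and 2.86.

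The promoters of Pnp and Clec7a are shown because both genes passed the test at an abundance where every library was well above 0. They are the 250 bases before and 50 bases after the annotated start in RefSeq on build GRCm38.p6, on chromosome 14 from 50944053 to 50944352 (plus strand) for Pnp and on chromosome 6 from 129472730 to 129473029 (minus strand) for Clec7a. Capitals mark GAGGAA or its reverse complement TTCCTC, a core bound by the myeloid factor PU.1. Of 32851 such promoters, 28.3% hold these letters on either strand. They stand in Clec7a at base 155 from the 5′ end and not in the Pnp window. Among the 14 called genes, 10 have a promoter in the table and 5 of those hold the letters.
Pnp: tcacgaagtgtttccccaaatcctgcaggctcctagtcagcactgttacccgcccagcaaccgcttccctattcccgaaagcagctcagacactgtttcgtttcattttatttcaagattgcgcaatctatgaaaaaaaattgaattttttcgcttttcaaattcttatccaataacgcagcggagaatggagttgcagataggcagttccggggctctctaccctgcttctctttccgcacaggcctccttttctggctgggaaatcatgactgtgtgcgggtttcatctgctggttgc
Clec7a: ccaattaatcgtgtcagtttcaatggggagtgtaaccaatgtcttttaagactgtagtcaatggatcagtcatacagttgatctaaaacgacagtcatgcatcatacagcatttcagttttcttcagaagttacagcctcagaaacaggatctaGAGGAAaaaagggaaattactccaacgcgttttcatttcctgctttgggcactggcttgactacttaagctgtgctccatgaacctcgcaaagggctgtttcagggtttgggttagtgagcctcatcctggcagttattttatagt

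The other 11 called genes were low in at least 1 group, and most of them rested on libraries near 0. Iigp1c, of the family of interferon-inducible GTPases, had 124, 15, 99.5 and 73.1 CPM in MG, against 3.39, 1.79 and 0.353 CPM in NoTx (log2 fold change 5.42, SE 0.93, adjusted p = 0.0212 in edgeR). No MG library overlapped the NoTx libraries. The call was lost without MG replicate 3, NoTx replicate 2 or NoTx replicate 3. Iigp1c shares its strand and part of its span with Gm5970, so its reads may be divided between them. Gm5970 lies within 2 Mb of Csf1r.

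Called in every leave-one-out fit were 3 transcripts of unknown function. They were 4930523C07Rik, A530040E14Rik and Gm37900. 4930523C07Rik had 9.63, 8.10, 8.86 and 8.01 CPM in MG, against 0.0691, 0.0608 and 0 CPM in NoTx (log2 fold change 7.45, SE 1.11, adjusted p = 0.0062 in edgeR). Its MG libraries were almost level, and the NoTx libraries held 5 counts in all. A530040E14Rik had 9.33, 4.98, 1.67 and 9.37 CPM in MG, against 0.0691, 0.152 and 0.0505 CPM in NoTx (log2 fold change 5.95, SE 0.89, adjusted p = 0.0062 in edgeR). For Gm37900, which lies on the strand of the ubiquitin ligase gene Fbxl4 and may share its reads, the values were 27.7, 5.48, 12.4 and 10.7 CPM in MG, against 0.0691, 0.137 and 0.0505 CPM in NoTx (log2 fold change 7.21, SE 1.06, adjusted p = 0.0062 in edgeR).

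A further 3 genes passed on the high side with an NoTx level near 0. Irak3, a kinase-like brake on signalling from Toll-like receptors, had 5.89, 7.85, 25.4 and 15.3 CPM in MG, against 0, 0.304 and 0.101 CPM in NoTx (log2 fold change 6.47, SE 1.20, adjusted p = 0.0367 in edgeR). Gpr35, a receptor coupled to G proteins, had 17.5, 14.7, 38.0 and 4.92 CPM in MG, against 0.346, 0.152 and 0.0505 CPM in NoTx (log2 fold change 6.70, SE 1.27, adjusted p = 0.0391 in edgeR). Neither gene overlapped between the groups. Tmem221, a membrane protein, had 3.14, 0.374, 16.3 and 14.2 CPM in MG, against 0, 0.0304 and 0 CPM in NoTx (adjusted p = 0.0313 in edgeR). The NoTx libraries held 2 of its counts and the MG libraries 1096, a ratio of 628 per unit of depth with a counting interval from 173 to 5190. For these genes the call was lost without MG replicate 3 and without any single NoTx library.

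On the low side stood 4 such genes. Ptger4, the EP4 receptor for prostaglandin E2, had 0, 0, 0.0531 and 0.0635 CPM in MG, against 2.56, 9.63 and 2.67 CPM in NoTx (log2 fold change -6.83, SE 1.16, adjusted p = 0.0209 in edgeR), and the call was lost without MG replicate 3 or NoTx replicate 2. Gimap5, a GTPase of lymphocyte survival, had 0, 0, 0.0265 and 0 CPM in MG, against 6.98, 18.2 and 7.67 CPM in NoTx (adjusted p = 0.0388 in edgeR). With 1 count in MG and 1452 in NoTx, the NoTx level per unit of depth was 1267 times that of MG, with a counting interval from 227 to 50100. Its reads may be shared with Gm28053 on the same strand.

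The long transcript 9130604C24Rik had 0, 0, 0.0265 and 0 CPM in MG, against 14, 9.81 and 0.0505 CPM in NoTx (adjusted p = 0.0391 in edgeR). The third NoTx library stood beside the MG libraries at about 1 count. Nedd9, a scaffold protein of adhesion signalling, had 0.196, 0, 0.0531 and 0 CPM in MG, against 8.85, 0.0304 and 12.8 CPM in NoTx (log2 fold change -6.99, SE 1.34, adjusted p = 0.0403 in edgeR). Its second NoTx library lay within the MG range, so the groups overlapped. Gimap5 and 9130604C24Rik kept the call in 1 of 7 leave-one-out fits each and Nedd9 in 2.

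By the naming rule, further abundant genes with no overlap between the groups were named by smallest p, although they did not pass the threshold. Over all tested genes, 728 had no overlap (3.86%), 333 with MG above (1.76%) and 395 with MG below (2.09%). Among the 5876 abundant genes 133 were above and 102 below NoTx in every MG library. A random split of 7 libraries into 4 and 3 leaves no overlap with a probability of 0.0571, so lack of overlap alone does not set a gene apart. Above stood Cacul1, a regulator of cyclin-dependent kinase activity, with 35, 22.4, 72.8 and 95.9 CPM in MG, against 12.4, 16.3 and 6.36 CPM in NoTx (log2 fold change 2.27, SE 0.49, adjusted p = 0.0879 in edgeR). Nampt, an enzyme of NAD salvage, had 28.1, 27.7, 97.5 and 112 CPM in MG, against 25.4, 14.1 and 3.23 CPM in NoTx (adjusted p = 0.219 in edgeR). Like Clec7a, both genes had their highest levels in MG replicates 3 and 4. Ccr1, a chemokine receptor, had 57.2, 82.6, 142 and 43.5 CPM in MG, against 42.4, 20.8 and 8.98 CPM in NoTx (adjusted p = 0.282 in edgeR). The others were Cpq, Lilra5, Edem3, Smurf2, Pkp4, Riox2 and Zfp606, with log2 fold changes between 1.30 for Zfp606 and 2.46 for Pkp4.

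Below stood Upk1b, a uroplakin, with 207, 178, 305 and 233 CPM in MG, against 617, 804 and 373 CPM in NoTx (log2 fold change -1.38, SE 0.38, adjusted p = 0.235 in edgeR). DESeq2 and limma-voom called Upk1b at adjusted p = 0.0071 and 0.024. Actg1, cytoplasmic gamma-actin, had 121, 147, 202 and 126 CPM in MG, against 292, 236 and 259 CPM in NoTx (log2 fold change -0.82, SE 0.30, adjusted p = 0.373 in edgeR). Serpinf1, a secreted serpin, had 58.9, 39.0, 35.1 and 76.0 CPM in MG, against 86.6, 126 and 118 CPM in NoTx (adjusted p = 0.369 in edgeR). In this direction the rule also named Gm49342, Tmem209, Ttc39b, Atad1, Ino80c, Rrm2b, G530011O06Rikx and Zfp655, with log2 fold changes between -0.83 for Atad1 and -1.84 for Rrm2b.

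Genes of the type I interferon response leaned to higher values in MG without passing the test. None of 43 was called (0 in edgeR), 37 had a positive log2 fold change and 11 an unadjusted p under 0.05, all higher. The median was 0.77, beside 0 over all tested genes, where 49% were positive. Members with a negative log2 fold change included Oasl1 at -3.97, Stat2 at -1.32, Oas2 at -1.26 and Rsad2 at -0.49. Zbp1, a sensor of Z-form nucleic acids, had 8.45, 3.24, 5.76 and 6.29 CPM in MG, against 0.484, 0.0608 and 0.101 CPM in NoTx (log2 fold change 4.89, SE 0.98, adjusted p = 0.0624 in edgeR). Its groups did not overlap, and 4 of the 17 other settings called it. Oasl2, an antiviral protein of the oligoadenylate synthetase family, had 69.6, 11.7, 129 and 68.3 CPM in MG, against 23.9, 0.866 and 21.6 CPM in NoTx (adjusted p = 0.366 in edgeR). The chemokine gene Cxcl10 had 10.3, 0, 45.4 and 10.2 CPM in MG, against 0.276, 0.106 and 3.53 CPM in NoTx (adjusted p = 0.366 in edgeR). The summed list was 1304 to 3344 CPM in MG and 1308 to 1497 CPM in NoTx (exact two-sided permutation p = 0.2). MG replicate 2, at 1304 CPM, lay below every NoTx library, so higher sums were not shared by all MG libraries.

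Several antigen presentation genes had their highest levels in the same MG libraries. The summed lists, which also hold other members, divided the libraries less clearly. Cd74, the invariant chain of MHC class II, had 4550, 184, 9773 and 255 CPM in MG, against 333, 357 and 658 CPM in NoTx. MG replicates 1 and 3 were the highest of the 7 libraries and replicates 2 and 4 the lowest. The log2 fold change was 3.04 (SE 0.97, adjusted p = 0.347 in edgeR). Cd74 lies within 2 Mb of Csf1r, a locus altered in NoTx mice. H2-Ab1, a class II beta chain, was also highest in MG replicates 1 and 3, with 1202, 57.6, 2676 and 64.6 CPM in MG, against 61.7, 97.1 and 204 CPM in NoTx. H2-Aa, its alpha partner, had 348, 3.24, 736 and 5.02 CPM in MG, against 15.1, 9.62 and 63.6 CPM in NoTx. Of 13 class II genes none was called (0 in edgeR), 12 were positive and the median was 0.48. At an unadjusted p under 0.05, 5 were higher and 1 was lower, Cd80, a costimulatory ligand with a log2 fold change of -1.11. The summed class II list was 25321, 14937, 46895 and 23709 CPM in MG, against 24259, 24223 and 14962 CPM in NoTx (exact two-sided permutation p = 0.457). In MG replicate 2, Cd74, H2-Ab1 and H2-Aa gave 184, 57.6 and 3.24 of the 14937 CPM. The list also holds members such as Ctss, so its sum does not measure the class II chains alone.

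Among class I genes, H2-K1 had 955, 245, 1216 and 178 CPM in MG, against 145, 221 and 223 CPM in NoTx (log2 fold change 1.72, SE 0.51, adjusted p = 0.282 in edgeR). H2-D1 had 1265, 543, 1934 and 207 CPM in MG, against 158, 344 and 415 CPM in NoTx. B2m, their common light chain, had 3873, 1414, 6912 and 2999 CPM in MG, against 2753, 2775 and 2257 CPM in NoTx. In all of them MG replicates 1 and 3 were the highest of the 7 libraries. None of 24 class I genes was called (0 in edgeR), 19 were positive and 8 had an unadjusted p under 0.05. The summed class I list was 11421, 7538, 17594 and 11757 CPM in MG, against 10505, 8484 and 6947 CPM in NoTx (exact two-sided permutation p = 0.229). The chemokine gene Cxcl9, induced by interferon gamma, had 91.8, 2.49, 215 and 0.254 CPM in MG, against 0.760, 0.577 and 0.303 CPM in NoTx (adjusted p = 0.0995 in edgeR). The names of MG libraries 1 and 3 carry the letter F and those of 2 and 4 the letter M, whose meaning is not given; the NoTx libraries are named F, M and F. With 2 libraries of each, no test of the letter was made.

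**Figure D3:**
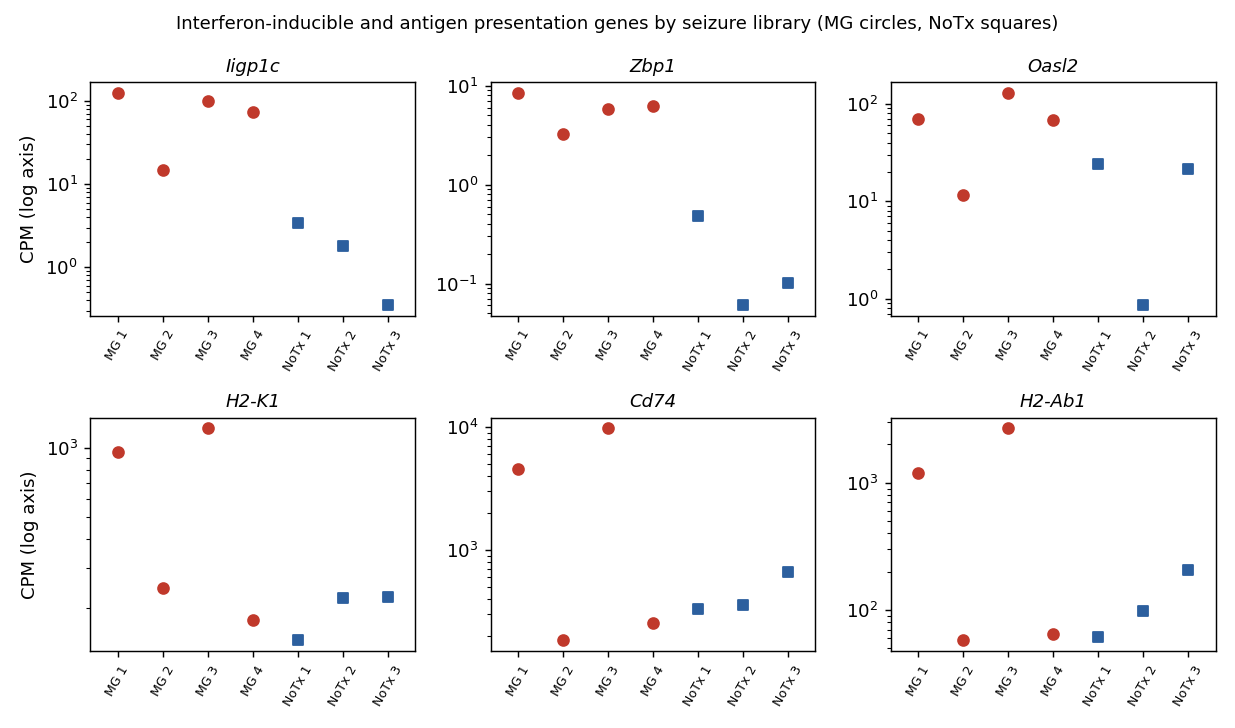
CPM per seizure library (y axes, log scale) of 3 interferon-inducible genes, Iigp1c, Zbp1 and Oasl2, and 3 antigen presentation genes, H2-K1, Cd74 and H2-Ab1; MG libraries are circles at the left, NoTx libraries squares at the right. Zbp1 and Iigp1c are higher in all 4 MG libraries, whereas MG 1 and 3 stand above all others for H2-K1, Cd74 and H2-Ab1.

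Lists of inflammatory and disease-associated genes held 1 call between them. In the list of disease-associated microglia 1 of 27 passed, Clec7a (higher), and the median log2 fold change was 0.13. Apoe, a lipid carrier, had 227, 339, 488 and 356 CPM in MG, against 190, 140 and 70.7 CPM in NoTx, with no overlap (log2 fold change 1.40, SE 0.89, adjusted p = 0.648 in edgeR). Axl, a receptor for apoptotic cells, had 57.2, 1.37, 44.9 and 9.72 CPM in MG, against 0.484, 7.76 and 8.18 CPM in NoTx (adjusted p = 0.391 in edgeR). Itgax, an integrin of activated microglia, had 1.87, 1.25, 43.3 and 0.0953 CPM in MG, against 7.33, 3.37 and 0 CPM in NoTx. Its highest and its second lowest library were both MG.

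Of 39 inflammatory cytokine and NF-kB feedback genes none passed (0 in edgeR), 7 had an unadjusted p under 0.05, all higher, and the median was 0.15. Ccl7, a monocyte chemokine, had 6.29, 2.87, 35.8 and 8.51 CPM in MG, against 1.11, 1.00 and 0.252 CPM in NoTx (log2 fold change 4.08, SE 0.87, adjusted p = 0.0867 in edgeR). Ccl12, of the same family, had 426, 120, 842 and 281 CPM in MG, against 236, 105 and 79.9 CPM in NoTx (adjusted p = 0.365 in edgeR). Il1b, an early inflammatory cytokine, had 5.11, 0, 0 and 13.6 CPM in MG, against 0.0691, 0.395 and 0 CPM in NoTx. Il1b was at 0 in libraries of both groups, so no difference can be read at this depth. Tnf had 6.29, 0, 1.11 and 0.254 CPM in MG, against 0, 5.10 and 2.07 CPM in NoTx, and its log2 fold change of -0.34 had an interval from -3.55 to 2.87.

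Complement and Fc receptor genes had a median log2 fold change of 0.06, with none of 20 called (0 in edgeR, 3 with an unadjusted p under 0.05). C1qa, a chain of the complement starter C1q, had 1828, 2076, 2304 and 685 CPM in MG, against 770, 2225 and 3026 CPM in NoTx. Fcgr4, an activating receptor for immunoglobulin G, had 34.4, 7.60, 81.4 and 39.4 CPM in MG, against 1.18, 8.95 and 2.42 CPM in NoTx (log2 fold change 3.27, SE 0.75, adjusted p = 0.129 in edgeR). Only MG replicate 2 overlapped with NoTx, and without it the adjusted p in edgeR was 0.033. Without any other single library it was 0.0555 to 0.340, so the lower value rests on a library left out after its level was seen. P2ry14, a receptor for UDP-glucose, had 10.2, 7.35, 13.5 and 0.127 CPM in MG, against 0.346, 0.152 and 0.101 CPM in NoTx (log2 fold change 5.33, SE 1.07, adjusted p = 0.0662 in edgeR). In that case MG replicate 4 lay with the NoTx libraries, and the adjusted p in edgeR was 0.0043 without it. Here too the library was left out after its level was seen. Without any other single library the adjusted p in edgeR was 0.0493 to 0.259.

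Housekeeping programs held no call. Of 78 cytosolic ribosomal protein genes none was called (0 in edgeR, 1 with an unadjusted p under 0.05). For 54 the interval lay within 2-fold either way, beside 22.5% of all abundant genes, a share not matched for level. Of 43 nuclear genes of oxidative phosphorylation 20 had such an interval, and of 44 genes of lysosome and phagocytosis 17, with none called (0 in edgeR for either list, and 1 and 2 with an unadjusted p under 0.05). Lamp2, a lysosomal membrane protein, had an interval from -0.73 to 0.15, and Cd68, a phagocyte marker, from -0.38 to 0.81. Immediate early and heat shock genes had a median of 0.55 with 28 of 36 positive and none called (0 in edgeR, 3 with an unadjusted p under 0.05). Hsph1, a chaperone, had 58.9, 63.7, 81.0 and 56.5 CPM in MG, against 2.42, 19.5 and 30.2 CPM in NoTx, with no overlap (log2 fold change 1.90, SE 0.66, adjusted p = 0.366 in edgeR). Fos, an immediate early gene, had 73.1, 48.0, 28.7 and 108 CPM in MG, against 67.8, 47.6 and 163 CPM in NoTx. Cell cycle genes, 40 in number, held no call (0 in edgeR, 7 with an unadjusted p under 0.05, all lower). Mki67, a proliferation marker, had 5.21, 0.249, 0.0265 and 0.0635 CPM in MG, against 0.0691, 0.076 and 0.0505 CPM in NoTx, so only MG replicate 1 was above 1 CPM. No member was called either in the lists of myeloid transcription factors, lipid handling, TGF-beta signalling, purinergic receptors, ion channels, glycolysis and mitochondrial transcripts (0 in edgeR, and 0 to 4 per list with an unadjusted p under 0.05), whose medians ran from -0.08 to 0.23.

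**Figure D4:**
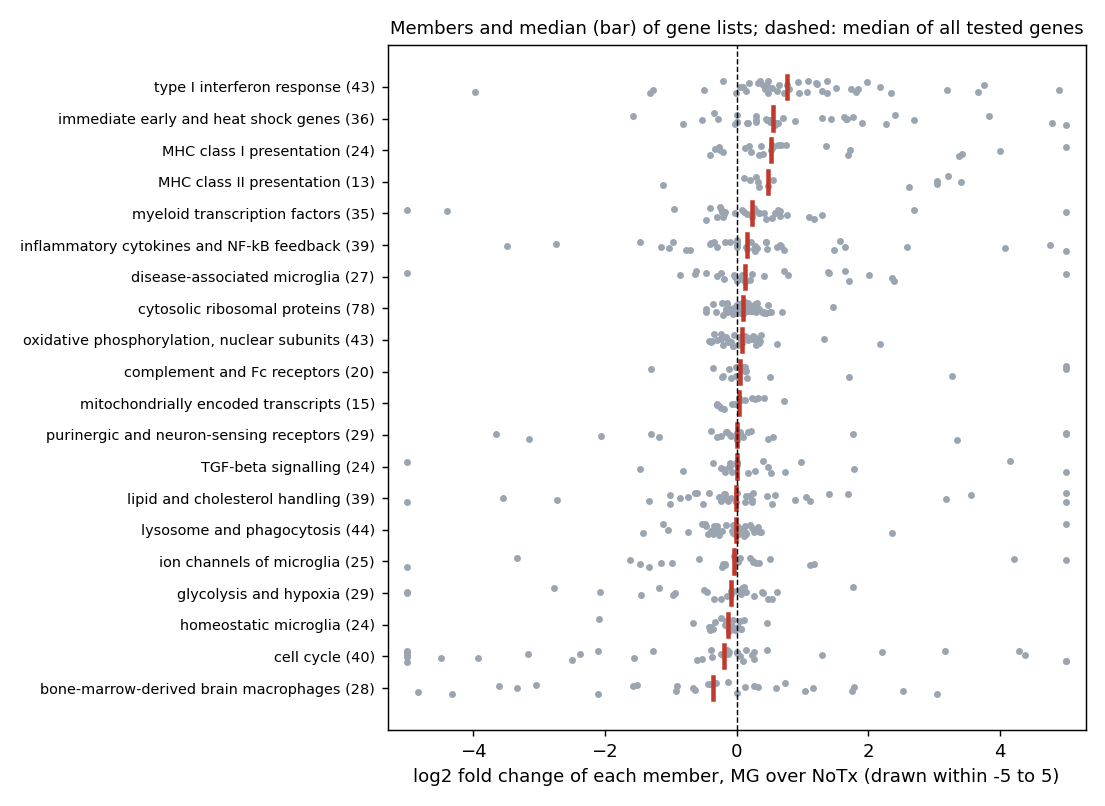
Log2 fold change of MG over NoTx after seizure (x axis) of each tested member (grey points, drawn within -5 to 5) and the median (red bar) for lists with at least 7 abundant members, the number tested in brackets; the dashed line is the median of all tested genes at 0. The interferon list has the highest median at 0.77, and the homeostatic list lies slightly below 0 at -0.13.

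Among markers of other cells, neutrophil transcripts were concentrated in NoTx replicate 3. S100a8, a calcium-binding alarmin of neutrophils, had 1.47, 0.872, 1.06 and 0.572 CPM in MG, against 0.553, 1.52 and 171 CPM in NoTx, and Ngp, a granule protein, had 4.42, 7.35, 2.71 and 1.52 CPM in MG, against 3.39, 9.07 and 317 CPM in NoTx. Summed over 9 genes, the markers reached 126 to 362 CPM in MG and 101 to 1435 CPM in NoTx, and none was called (0 in edgeR, 6 with an unadjusted p under 0.05, all lower). The same library was the highest of the 7 in Rgs18, Ifi203 and Clec12a, which were among the genes called lower after saline, with 5.05, 7.37 and 4.85 CPM. The part of these cells in the comparison was not tested. Border macrophage genes summed to 556 to 842 CPM in MG and 582 to 644 CPM in NoTx. None of 25 was called (0 in edgeR), 11 were positive and the median log2 fold change was -0.34. At an unadjusted p under 0.05 in edgeR 1 was higher and 6 were lower, beside 5.95% and 5.1% of all tested genes. The sum therefore does not stand for the members. Markers of bone-marrow-derived macrophages summed to 1105 to 11245 CPM in MG and 1044 to 1699 CPM in NoTx, and 1 of 28 passed, Ly9 (higher). Cd74 made up most of the high sums of MG replicates 1 and 3. The median log2 fold change of this list was -0.35, 11 of 28 genes were positive, and at an unadjusted p under 0.05 3 were higher and 6 lower. Ms4a7, which marks macrophages of monocyte origin in the brain, was low in both groups at 1.08 to 15.3 CPM in MG and 6.75 to 8.28 CPM in NoTx.

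Of 14 astrocyte genes none was called (0 in edgeR, 1 with an unadjusted p under 0.05, lower). That gene, Aldh1l1, a folate enzyme of astrocytes, held 1 count in MG and 1287 in NoTx, a ratio of NoTx over MG of 1123 per unit of depth with a counting interval from 201 to 44410 (adjusted p = 0.232 in edgeR, 0.024 in limma-voom). Over the whole astrocyte list the sum was 337 to 586 CPM in MG and 306 to 537 CPM in NoTx. Neuron markers summed to 6.67 to 26.7 CPM in MG and 10.2 to 21.1 CPM in NoTx. The lists of neurons, oligodendrocytes, endothelium, blood monocytes, B cells, red cells with choroid plexus, and T and NK cells held no call (0 in edgeR, and 0 to 5 per list with an unadjusted p under 0.05). Xist, the transcript of the inactive X chromosome, had 289, 225, 421 and 187 CPM in MG, against 152, 2.28 and 297 CPM in NoTx. The Y-linked Ddx3y had 38.7, 48.5, 4.83 and 108 CPM in MG, against 2.07, 187 and 1.11 CPM in NoTx. MG replicates 1, 2 and 4 held both transcripts in quantity, while MG replicate 3 and each NoTx library held mainly 1 of them. The names of NoTx libraries 1 and 3, with mainly Xist, carry the letter F and that of library 2, with mainly Ddx3y, the letter M. In MG, Xist was present in libraries of both letters, and Ddx3y was highest in libraries 2 and 4, named M, and next in library 1, named F. The part of sex in the comparison was not tested.

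The same pair of cell types was measured after saline in other libraries, with 10 of 18867 genes called in edgeR (0.053%), 1 higher (0.0053%) and 9 lower (0.0477%). No gene was called after both treatments, and 11 of the 14 seizure calls had a fold change of the same sign after saline. The share of same sign over all tested genes was not taken. The count is therefore a description and does not show that the calls recur. Pnp had a log2 fold change of -1.31 (SE 0.35) after saline, Ly9 of 1.80 (SE 0.53) and Iigp1c of 4.38 (SE 1.06), each in the direction seen after seizure and with adjusted p of 0.465, 0.761 and 0.242 in edgeR. Clec7a had a log2 fold change of 0.28 (SE 0.49) after saline. The difference between treatments was 2.11 for Clec7a, -0.56 for Pnp, 0.73 for Ly9 and 1.04 for Iigp1c, and in none of them did it pass (adjusted p = 0.695, 0.868, 0.890 and 0.953 in edgeR). It passed for 2 genes (0.0106%), 4930523C07Rik and Gm37900. 4930523C07Rik had 2.21, 4.90 and 4.36 CPM in MG after saline, against 9.16 and 21.8 CPM in NoTx, and its difference between treatments was 9.47 on the log2 scale (SE 1.40, adjusted p = 0.0141 in edgeR). Gm37900 had 7.36, 6.75 and 8.33 CPM in MG after saline, against 12.7 and 13.8 CPM in NoTx (difference 8.03, SE 1.31, adjusted p = 0.0321 in edgeR). In both genes the NoTx seizure libraries, near 0, stood apart from the other groups. Without NoTx seizure replicate 1 or 3, MG saline replicate 2 or 3, or NoTx saline replicate 2, no gene passed this test (0 in edgeR). Treatment and batch cannot be told apart.

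**Figure D5:**
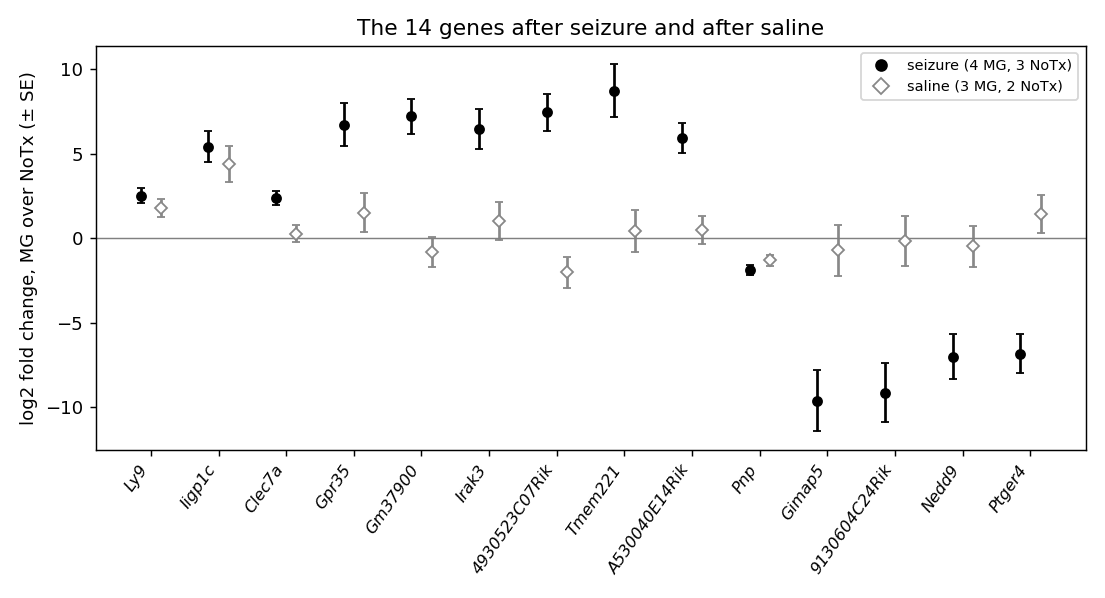
Log2 fold change of MG over NoTx (y axis, bars ± SE) of the 14 called genes after seizure (filled circles) and after saline (open diamonds). Of the 14 genes, 11 lie on the same side of 0 after both treatments and 3 do not, Ptger4, 4930523C07Rik and Gm37900. None of the 14 was called after saline. Iigp1c stays beyond 4 after saline, and the other genes beyond 5 or -5 after seizure lie between -2.02 and 1.52 after saline; the fitted values of Tmem221, Gimap5 and 9130604C24Rik rest on 1 or 2 counts in the lower group.

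The MLC libraries share the genotype Osb-GFP with MG. Pnp ran from 72.5 to 166 CPM over all 16 Osb-GFP libraries of both cell types and treatments, against 251 to 419 CPM over all 5 NoTx libraries. Ly9 ran from 80.2 to 410 CPM in Osb-GFP libraries, against 24.6 to 72.9 CPM in NoTx, and Iigp1c from 15 to 1300 CPM, against 0.353 to 3.66 CPM. These 3 were the called genes whose libraries were separate over the whole series, as were 24 of all 18867 tested genes (0.127%). Because the 7 seizure libraries are among those compared, this is a description and not a second test. The remaining 11 called genes overlapped between Osb-GFP and NoTx libraries. Gimap5, for example, had 4.31, 2.10 and 1.72 CPM in MG after saline, against 4.56 and 4.23 CPM in NoTx, and Ptger4 had 8.22 to 44.8 CPM in MLC after seizure.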

How the data were processed

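RNA was extracted from sorted brain cells and sequenced from low-input libraries amplified by PCR, per the labels' protocols. No molecular identifiers are named, so counting intervals cover counting error only. Per the submitters' processing notes, Trim Galore 0.6.7, STAR 2.7.10a, featureCounts and DESeq2 1.36.0 were used with the mouse genome GRCm39. The table deposited by the authors holds estimated counts per gene, of which 28.2% to 45.4% of the values above 0 in a library were not whole. They were rounded here. Which tool made them fractional is not given here.

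All 21 libraries entered an edgeR 4.0.16 quasi-likelihood fit (R 4.3.3, TMM scaling, filter by group, robust, 6 group means) as the main test. Adjusted p values are Benjamini-Hochberg over the 18867 genes tested of 57180, at a limit of 0.05 without a minimum fold. Standard errors were taken from the fold change and the F statistic of each gene. DESeq2 1.42.0, limma 3.58.1 and the other settings of the closing section were alternatives, and the pipeline was tested on simulated data. Summed lists were compared by exact permutation over 35 splits. The naming rule took Csf1r, Cx3cr1, up to 12 abundant genes per direction with no overlap of libraries (mean log2 CPM of at least 4), genes of the test between treatments and members of 31 lists. The other called genes are named because all 14 are accounted for. Comparison, lists and rule were chosen with earlier results of these data known, and the lists written from general knowledge. Overlapping genes were read from GENCODE M21, on another build, and only as to which genes overlap or neighbour each other. Nedd9 also overlaps Gm48569 on its own strand. Called genes with an overlap on the other strand include Ly9 (Cd244a), Irak3 (Tmbim4), Ptger4 (Ttc33), A530040E14Rik (A530032D15Rik) and 9130604C24Rik (Epo). Whether reads were assigned by strand is not given here, so their reads may be shared as well. Promoters are from RefSeq. Values of some list members are not reported here.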

Additional observations from a re-analysis of the deposited data

Results flagged for a closer look

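In the 4 MG seizure libraries, 89 named genes with a level of at least 1 CPM were searched for a library far from the other 3 on the log2 scale, and 2 were found. Chance alone flags about 1 group in 20. Lilra5, an activating immunoglobulin-like receptor, had 129 CPM in MG replicate 3 and 56.1 to 59.7 CPM in the other MG libraries. P2ry14 had 0.127 CPM in MG replicate 4 and 7.35 to 13.5 CPM in the other MG libraries.

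The difference between MG and NoTx itself differed between seizure and saline for 4930523C07Rik, by 9.47 on the log2 scale, and for Gm37900, by 8.03, by the test of the difference in edgeR. Treatment and batch cannot be told apart.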

How the results depend on the processing

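The comparison after seizure had 14 calls. DESeq2 gave 627, limma-voom 24 and no low-count filter 23, while a fit of only the 7 libraries and a fit of the 13 seizure libraries gave 0 each. Leaving out each library gave 5 to 38 calls, with 4 to 12 of the 14 among them. RLE scaling, GC correction, thinning, a fold minimum and leaving out MG replicates 3 and 4 gave 12 to 21. These fits kept 6 to 14 of the 14 calls. The fit without MG replicates 3 and 4 kept 6 of them and called 20 genes higher and 1 lower. The median over all genes shifted by 0.19 (log2) with limma-voom, and by 0.13 with GC correction. After saline the 10 calls became 420 with limma-voom and 18 with no filter, and 1 to 17 with a library left out. The 2 calls of the difference between treatments became 27 with limma-voom, 4 with no filter or without MG seizure replicates 3 and 4, 1 with GC correction, and 0 to 7 with a library left out. No called gene changed sign in any setting, and 16 of 89 named genes that were not called did in at least 1 of 17 settings. The causes were not tested.

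A further fit added a block, the code of letter and digit that ends the library name for seizure and the replicate number for saline. With this block, calls in edgeR were 0 after seizure (1148 with an unadjusted p under 0.05), 4 after saline and 0 for the difference. Same-numbered MG and NoTx seizure libraries carry the same code. Their deviations from the group means correlated at -0.146, 0.034 and 0.048, and those of other pairs at -0.379 to 0.39. These few values, from groups of 4 and 3 libraries, cannot show whether the numbers pair the libraries. With 4 and 3 libraries, and transcripts at under 3 counts in several of them, changes of low genes were not detectable at this depth in many cases.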

Other observations

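Over the whole series, 24 of 18867 tested genes (0.127%) had no overlap between the 16 Osb-GFP libraries (MG and MLC, seizure and saline) and the 5 NoTx libraries, 5 higher and 19 lower. All Osb-GFP libraries are of transplanted cells, so genotype and transplantation cannot be told apart here. Besides genes named above they include some chosen here after their values were seen. Epb41l3, a protein that links membrane to actin, had 15.6 to 55.9 CPM in Osb-GFP libraries and 0.76 to 12.8 CPM in NoTx libraries. P2ry10b, a receptor of the P2Y family by name, had 7.72 to 87.7 CPM in Osb-GFP libraries and 93.7 to 171 CPM in NoTx libraries. Cd1d1, which presents lipid antigens, had 0.406 to 49.0 CPM in Osb-GFP libraries and 61.8 to 113 CPM in NoTx libraries. Trappc2, a subunit of a vesicle tethering complex, had 34.2 to 71.3 CPM in Osb-GFP libraries and 73.2 to 109 CPM in NoTx libraries. Of these, none was called in MG against NoTx after seizure (adjusted p of 0.379 to 0.813 in edgeR).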
